A study of Homo sapiens with 36 samples.

Results

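Replication factor C (RFC) is the clamp loader of the replication fork. The large subunit RFC1 and the small subunits RFC2, RFC3, RFC4 and RFC5 form a ring that uses ATP to open the sliding clamp PCNA and close it around DNA at a primer end, so that the replicative polymerases stay attached. The small subunits also serve in alternative loaders in which RFC1 is replaced. RAD17 takes its place to load the checkpoint clamp RAD9A-RAD1-HUS1, CHTF18 with DSCC1 and CHTF8 forms a loader linked to sister chromatid cohesion, and ATAD5 forms the complex that takes PCNA off DNA.

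The 5 RFC genes were taken from 19775 genes measured on 36 arrays of HK-2 cells, an immortalized line derived from human proximal tubule epithelium. They were chosen for the fall of RFC3 and RFC4 with Ota, so they were selected on measured values. Every RFC value from the Ota series, whose vehicle arrays are the baseline of that fall, is given below as a description, with no test. The comparisons within the Aa series did not enter that choice and were tested with limma (Benjamini-Hochberg adjusted p under 0.05). RFC is represented by 12 probe sets that the platform annotation assigns to a single gene; per gene the probe set with the highest mean over the 36 arrays was used, and the others are given where they differ.

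The cells, grown in a defined medium (DMEM/Ham's F12 with EGF, hydrocortisone, insulin, transferrin and selenite), were exposed near confluence to compounds that the labels abbreviate as Aa and Ota, each at a low and a high dose (amounts not given in the labels used here), or to vehicle. Aa was followed for 24 h and 48 h and Ota for 24 h and 72 h, which gives 12 groups of 3 biological replicates. Each compound had its own vehicle cultures at each hour, and the series as a whole was designed around signatures of kidney toxicity. All groups are the same cell line without a genetic change, and because the doses and hours of the compounds are not matched, their values are set side by side without a test. Of 12 proximal tubule markers with a probe set, 3 (CDH6, PAX8 and SLC3A1) were above a log2 value of 4 on all 12 vehicle arrays, while the other 9, among them AQP1, CUBN and LRP2, were at or under 4. All 4 general tubular epithelial markers (CDH1, EPCAM, KRT8 and KRT18) were above 4 there, as were 3 of 7 fibroblast, 3 of 7 distal nephron and 1 of 6 endothelial markers, and 0 of 5 leukocyte markers.

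The stretches of 250 bases upstream of the start of RFC1, RFC3 and RFC4 are shown first, because these subunits behaved differently from each other below. Their sequences come from RefSeq (GRCh38.p14), are written 5′ to 3′ on the gene's strand and end at the base before the start. Capitals mark matches, on either strand, to 3 strings: the E2F-type strings TTTNNCGC and TTCCCGC and the cyclic AMP response element TGACGTCA.
RFC1 upstream, chr4:39366363-39366612, minus strand: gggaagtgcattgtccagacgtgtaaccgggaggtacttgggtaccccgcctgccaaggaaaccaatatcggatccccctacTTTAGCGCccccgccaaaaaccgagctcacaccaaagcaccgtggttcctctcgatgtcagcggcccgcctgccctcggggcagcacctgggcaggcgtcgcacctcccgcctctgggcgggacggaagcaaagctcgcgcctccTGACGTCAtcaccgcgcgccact
RFC3 upstream, chr13:33817899-33818148, plus strand: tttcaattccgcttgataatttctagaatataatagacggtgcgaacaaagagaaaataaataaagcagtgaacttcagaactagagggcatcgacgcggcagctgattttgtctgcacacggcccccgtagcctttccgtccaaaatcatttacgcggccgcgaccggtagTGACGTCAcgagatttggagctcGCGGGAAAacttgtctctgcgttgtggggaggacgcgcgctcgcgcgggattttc
RFC4 upstream, chr3:186806483-186806732, minus strand: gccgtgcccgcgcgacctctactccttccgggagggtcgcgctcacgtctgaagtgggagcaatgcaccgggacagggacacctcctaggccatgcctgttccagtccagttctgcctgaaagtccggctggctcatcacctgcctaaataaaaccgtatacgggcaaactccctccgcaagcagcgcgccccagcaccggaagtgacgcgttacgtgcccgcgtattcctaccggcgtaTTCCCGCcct

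RFC1 has TTTAGCGC 168 to 161 bases and TGACGTCA 23 to 16 bases before its start. RFC3 has TGACGTCA 78 to 71 bases before its start and GCGGGAAA at 55 to 48 bases, where both E2F-type strings match the opposite strand and overlap. RFC4 has TTCCCGC 10 to 4 bases before its start. The windows of RFC2 (chr7:74254400-74254649) and RFC5 (chr12:118016453-118016702) hold none of the 3 strings. An E2F-type string was found in 3 of 5 RFC windows and in 9.75% of 34796 windows of the same length, and TGACGTCA in 2 of 5 and in 1.64%. The sequence CCAAT, searched on both strands, was in the windows of RFC1 and RFC5 and in 32.0% of all windows; TTTGAA was in 0 of 5 and in 13.3%. These matches are descriptions of the sequence and were not tested for binding.

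After Ota the subunits did not move together. RFC4 was low at both hours and both doses, RFC3 was low at 24 h and high at 72 h, RFC2 was low at 24 h with the high dose, and RFC1 stayed near its vehicle level. RFC5 depended on the probe set. The values were chosen for this pattern and are given as a description.

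**Figure D1:**
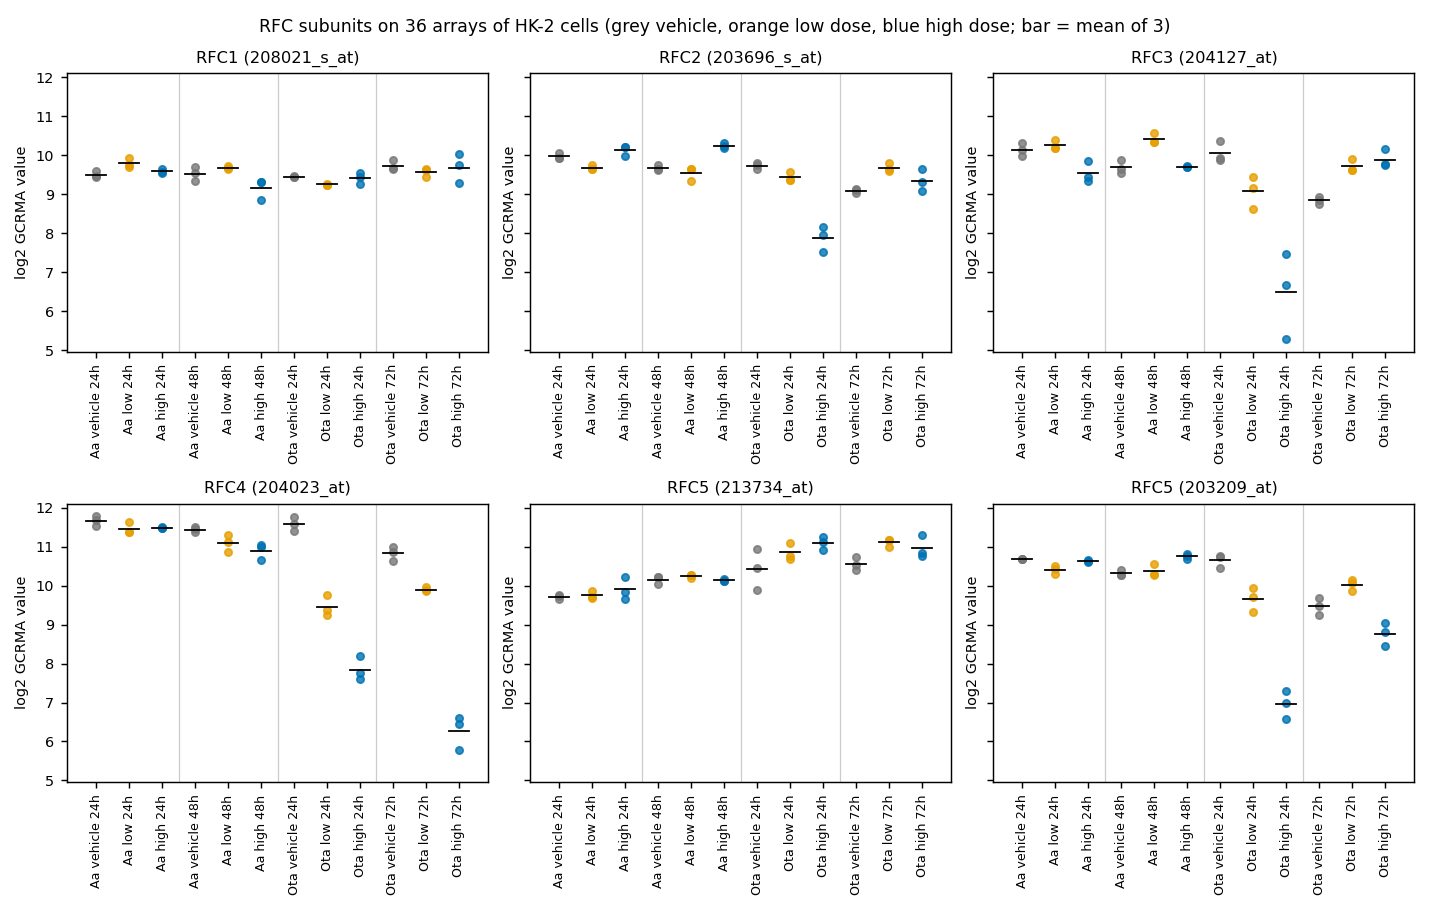
Deposited log2 GCRMA values (y axis) of the RFC subunits on each array of the 12 groups (x axis), with a bar at each group's mean of 3 arrays; RFC5 is shown by 2 probe sets. RFC4 reaches its lowest mean, 6.28, with high-dose Ota at 72 h, while RFC2, RFC3 and RFC5 by 203209_at have their lowest means with high-dose Ota at 24 h.

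RFC4, a small subunit that carries part of the ATP-driven motor, was measured by a single probe set. Its log2 values on the Ota vehicle arrays at 24 h were 11.41, 11.57 and 11.77, against 9.38, 9.24 and 9.75 with the low dose and 7.60, 8.19 and 7.75 with the high dose. At 72 h the vehicle arrays read 10.63, 10.98 and 10.86, the low dose 9.85, 9.88 and 9.96 and the high dose 6.60, 6.44 and 5.79. At each hour every treated array lay below every vehicle array, and every high-dose array below every low-dose array. The mean difference from vehicle at 24 h was -2.13 with the low dose and -3.74 with the high dose, which leaves 7.50% of the vehicle level on the linear scale. At 72 h it was -0.92 with the low dose and -4.54 with the high dose, or 4.28% of vehicle. Of 11029 genes tested in the Ota series, 336 had a lower difference than RFC4 with the high dose at 24 h and 54 with the low dose. At 72 h it was 56 with the high dose and 370 with the low dose. RFC4 was chosen for this fall, so nothing is read from these ranks.

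RFC3, another small subunit of the ring, was low at 24 h only. Its values with vehicle at 24 h were 9.94, 9.87 and 10.37, with the low dose 9.17, 8.62 and 9.44 and with the high dose 6.67, 5.29 and 7.48. At 72 h vehicle read 8.86, 8.93 and 8.76, the low dose 9.61, 9.63 and 9.90 and the high dose 9.75, 9.77 and 10.15. The groups did not overlap at either hour: at 24 h both doses lay below vehicle, and at 72 h both lay above it. The differences were -0.99 (low) and -3.58 (high) at 24 h, and 0.86 and 1.04 at 72 h. Replicates of the high-dose group at 24 h were far apart (SD 1.11, n = 3), and without replicate 2 the difference was -2.99. A second RFC3 probe set, 204128_s_at, gave -4.23 at 24 h, with 2 of 3 high-dose arrays at or under 4, and 1.29 at 72 h. The third, 231119_at, was at or under 4 on most arrays and gave 0.46 and 0.60.

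RFC3 in the vehicle cultures was itself lower at 72 h than at 24 h, so that the high-dose mean at 72 h, 9.89 ± 0.22 (SD, n = 3), was close to the vehicle mean at 24 h, 10.06 ± 0.27. RFC4 with the high dose was lower still at the later hour: its mean was 7.85 ± 0.31 at 24 h and 6.28 ± 0.43 at 72 h, with every later array under every earlier one. Within an array the difference RFC3 minus RFC4 changed from vehicle by 0.15 with the high dose at 24 h (SD 1.37 in treated and 0.15 in vehicle arrays) and by 5.59 at 72 h (SD 0.65 and 0.18). With the high dose the gap between these subunits was thus within the replicate spread at 24 h and beyond it at 72 h. With the low dose RFC3 minus RFC4 changed by 1.14 at 24 h (SD 0.22 in treated and 0.15 in vehicle arrays). At 72 h the low-dose change was 1.79 (SD 0.10 and 0.18), and treated and vehicle arrays did not overlap at either hour. These groups chose the genes, so the gaps are a description.

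RFC2, a small subunit next to RFC5 in the ring, read 9.74, 9.66 and 9.79 with Ota vehicle at 24 h, 9.37, 9.36 and 9.56 with the low dose and 7.51, 8.15 and 7.96 with the high dose. The high-dose arrays lay below all others, at a difference of -1.85, and the low-dose arrays also lay below vehicle, at -0.30. At 72 h the difference was 0.59 with the low dose, with no overlap, and 0.26 with the high dose, where the arrays (9.31, 9.08 and 9.64) overlapped those of vehicle (9.02, 9.13 and 9.11). The second RFC2 probe set, 1053_at, gave -2.00 and -0.23 at 24 h and 0.17 and 0.55 at 72 h for the high and low dose, the same directions.

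RFC1, the large subunit that is not shared with the alternative loaders, had the smallest differences by its main probe set. With the high dose at 24 h its arrays read 9.55, 9.27 and 9.45 against 9.44, 9.47 and 9.45 with vehicle, a difference of -0.03. At 72 h they read 9.74, 10.03 and 9.28 against 9.67, 9.89 and 9.65, a difference of -0.05. Both pairs of groups overlapped, and no direction can be given at 24 h since the difference became 0.25 after quantile normalization and 0.61 after shifting the arrays to a common median. The low-dose arrays of RFC1 lay below vehicle without overlap by small amounts, -0.20 at 24 h and -0.16 at 72 h. The probe set 209085_x_at, whose name marks possible cross-hybridization, gave -0.01 and 0.06 there, with overlap. With the high dose it gave 0.07 at 24 h and 0.61 at 72 h, the latter without overlap. The third RFC1 probe set, 208133_at, was at or under 4 on every array.

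RFC5, a small subunit that like its partners takes part in every loader, has 3 probe sets that disagreed. The one with the highest mean (213734_at, 10.41 over the 36 arrays) was 0.67 above vehicle with the high dose of Ota at 24 h, with overlapping arrays; without vehicle replicate 2 or 3 this became 0.40 or 0.93. The others were far below: 203209_at (mean 9.89) read 6.58, 7.30 and 6.99 against 10.74, 10.44 and 10.77 with vehicle, a difference of -3.69, and 203210_s_at gave -5.51, with 2 of 3 high-dose arrays at or under 4. These 2 probe sets resembled RFC3 and RFC4 at 24 h. At 72 h with the high dose 203209_at was -0.70 and 203210_s_at -0.80 from vehicle, both without overlap, while 213734_at was 0.41 above it. At 72 h all 3 were above vehicle with the low dose, by 0.57 for 213734_at, 0.57 for 203209_at and 0.89 for 203210_s_at.

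**Figure D2:**
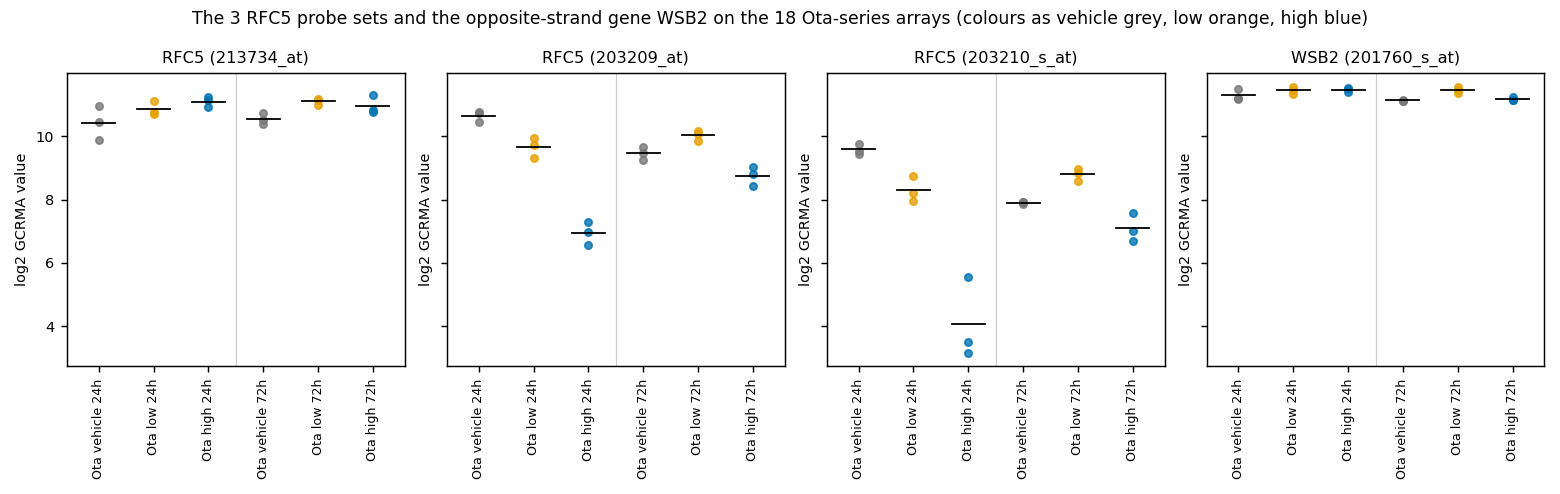
Log2 GCRMA values (y axis) of the 3 RFC5 probe sets and of WSB2 on the 18 arrays of the Ota series (x axis, 6 groups of 3, bar at the mean). With high-dose Ota at 24 h, 203209_at and 203210_s_at drop to means of 6.96 and 4.07, while 213734_at and WSB2 stay at 11.10 and 11.47.

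RefSeq places RFC5 on the plus strand and WSB2, a gene for a protein with a SOCS box, on the minus strand, with gene spans that overlap by 8762 bases. Across the 36 arrays 213734_at followed the WSB2 probe set with r = 0.72, while r was -0.36 between 203209_at and WSB2; the points share 12 groups, and these correlations are descriptions. Which transcript 213734_at measures was not tested. RFC5 is therefore given by 213734_at, as the rule says, and by 203209_at.

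Taking the probe set with the highest mean for each gene, the arrays of RFC2, RFC3 and RFC4 did not overlap vehicle with high-dose Ota at 24 h, 3 of 5 subunits, where 65.0% of all genes did not overlap. At the low dose and 24 h 4 of 5 did not overlap, against 41.7% of all genes. At 72 h it was 3 of 5 with the high dose (71.8% of all genes) and 5 of 5 with the low dose (49.5%). Since these contrasts chose the genes, nothing is read from the counts. On the high-dose arrays the median of the tested genes was lower than with vehicle: 7.64 ± 0.16 against 8.28 ± 0.06 at 24 h and 7.95 ± 0.05 against 8.28 ± 0.02 at 72 h. The median difference over all 11029 genes was -0.26 at 24 h and -0.12 at 72 h, and the subunits' differences stand relative to that. After shifting the arrays to a common median the 24 h differences were -1.22 for RFC2, -2.94 for RFC3 and -3.10 for RFC4, and that of RFC4 at 72 h was -4.22. The same shift raised RFC5 by 213734_at to 1.31 at 24 h and 0.74 at 72 h, and at 72 h RFC2 to 0.59 and RFC1 to 0.28.

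**Figure D3:**
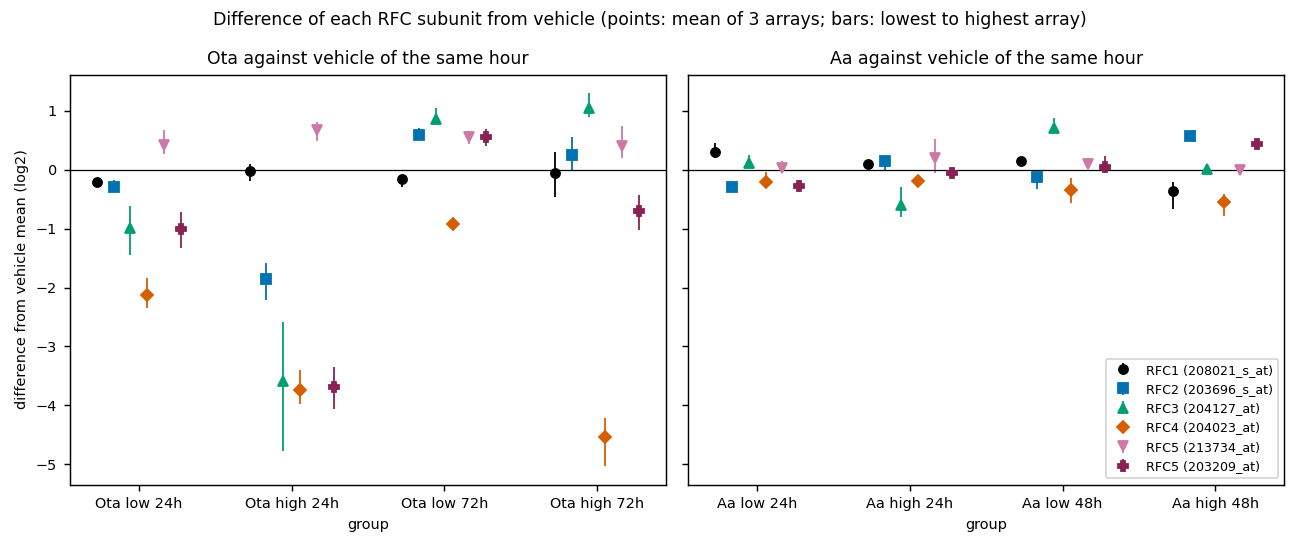
Difference of each subunit from the vehicle mean of the same compound and hour (y axis, log2), as the mean of 3 arrays with a bar from the lowest to the highest array, by dose group (x axis). With Ota the means range from -4.54 (RFC4, high dose, 72 h) to 1.04 (RFC3, same group), and with Aa from -0.60 to 0.72, both extremes being RFC3.

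The difference between the ACTB 3′ and 5′ control probe sets, a measure of RNA integrity, was 1.88 ± 0.37 with the high dose at 72 h and 1.29 ± 0.15 with vehicle. Leukocyte markers, at or under 4 in vehicle, had a summed level (log2 of the sum over the list) of 6.91 to 7.34 with the high dose at 24 h against 4.70 to 4.71, and of 6.71 to 7.35 against 4.62 to 4.81 at 72 h. Other marker lists also stood apart from vehicle with the high dose at 72 h: proximal tubule at 10.83 to 11.45 against 11.91 to 12.15, distal nephron at 9.64 to 9.89 against 10.75 to 11.28, endothelial at 5.79 to 6.19 against 7.19 to 7.47 and fibroblast at 10.30 to 10.96 against 9.56 to 9.91. At 24 h proximal tubule markers were at 11.87 to 12.12 against 12.23 to 12.39 and distal nephron markers at 9.88 to 10.13 against 10.27 to 10.49. General tubular epithelial markers were slightly below vehicle at both hours, at 14.03 to 14.23 against 14.24 to 14.46 and 14.25 to 14.52 against 14.58 to 14.66. With the low dose proximal tubule markers lay above vehicle at both hours, at 12.67 to 12.81 at 24 h and 12.72 to 12.81 at 72 h. Leukocyte markers were above vehicle with the low dose at 24 h (4.87 to 5.83). At 72 h with the low dose fibroblast markers were above vehicle (10.66 to 11.24) and tubular epithelial markers below it (14.38 to 14.42). The part of these lists in the RFC values was not tested. In whole cultures a smaller share of cells of a type and less RNA per cell cannot be told apart.

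The Ota vehicle cultures are the baseline of the falls that chose the genes, so their values at 72 h and 24 h are also given as a description. RFC3 was 8.86, 8.93 and 8.76 at 72 h against 9.94, 9.87 and 10.37 at 24 h, a difference of -1.21. RFC4 differed by -0.76 and RFC2 by -0.64, and for these 3 subunits every array at 72 h lay below every array at 24 h. RFC1 differed by 0.28, with every later array above every earlier one, and RFC5, by 213734_at, by 0.12 with overlap. The other RFC5 probe sets were lower at 72 h without overlap, 203209_at by a difference of -1.19 and 203210_s_at of -1.68, and so was the second RFC3 probe set, 204128_s_at (-1.14). In a fit over all genes 29.8% were called between these hours, and no test outcome is given for the subunits. In the same cultures the summed fibroblast markers were 9.56 to 9.91 at 72 h against 11.31 to 11.64 at 24 h, and the endothelial ones 7.19 to 7.47 against 6.17 to 6.29. Proximal tubule markers were also lower at 72 h, at 11.91 to 12.15 against 12.23 to 12.39. Distal nephron (10.75 to 11.28 against 10.27 to 10.49) and tubular epithelial markers (14.58 to 14.66 against 14.24 to 14.46) were higher. The part of the marker lists in these RFC values was not tested.

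In the Aa series the changes were smaller and again unlike between subunits. With the high dose at 24 h RFC3 was lower, its arrays reading 9.35, 9.44 and 9.85 against 10.13, 9.99 and 10.32 with vehicle, without overlap. The change was -0.60 ± 0.14 (adjusted p = 0.00199), and RFC3 was the only subunit of 5 called, where 51.3% of all genes were called. RFC1 (0.09 ± 0.13), RFC2 (0.15 ± 0.10), RFC4 (-0.19 ± 0.13) and RFC5 (0.20 ± 0.12) did not pass. The other well-measured RFC3 probe set lay without overlap below vehicle too, at -0.65. The call was lost when all 36 arrays entered 1 fit (adjusted p = 0.0950) or when RFC3's probe sets were averaged (adjusted p = 0.571), since the near-background set 231119_at went up by 0.89. RFC5 was called when replicate 3 of the high-dose group was left out (adjusted p = 0.0346). Of the marker lists, fibroblast (at most 11.62 against at least 11.64), distal nephron (9.43 to 9.85 against 9.90 to 10.58) and tubular epithelium (13.94 to 14.16 against 14.28 to 14.44) lay below vehicle on these arrays, and leukocyte (4.83 to 5.19 against 4.62 to 4.81) and endothelial (6.09 to 6.15 against 5.59 to 6.06) above it, and their part was not tested.

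Low-dose Aa at 24 h gave a lower RFC2, at 9.64, 9.65 and 9.75 against 9.93, 9.94 and 10.06. This change, -0.30 ± 0.10 (adjusted p = 0.0489), was the single call among 5 subunits, against 25.1% of all genes. Leaving out any of the 6 arrays ended it (adjusted p from 0.0671 to 0.155), as did quantile normalization (0.0898), a common median (0.135), all 36 arrays in 1 fit (0.121) and the second RFC2 probe set (0.0793). With the replicate number as a block RFC2 was called at an adjusted p of 0.00820 and RFC1, 0.30 higher, at 0.0382 (0.110 without the block). That blocked fit called 4323 of 10972 genes.

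At 48 h with the high dose of Aa, RFC2 and RFC4 moved apart. RFC2 was higher, at 10.25, 10.18 and 10.31 against 9.61, 9.65 and 9.75, a change of 0.57 ± 0.10 (adjusted p = 0.000192). RFC4 was lower, at 10.99, 11.03 and 10.65 against 11.45, 11.37 and 11.49, a change of -0.54 ± 0.13 (adjusted p = 0.00142). Neither pair of groups overlapped, and within an array RFC2 minus RFC4 changed by 1.12 (SD 0.26 in treated and 0.06 in vehicle arrays).

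RFC1 was lower as well, at 9.31, 9.32 and 8.86 against 9.55, 9.71 and 9.33. The change was -0.37 ± 0.13 (adjusted p = 0.0212), and the call was lost without vehicle replicate 1 (adjusted p = 0.0528), vehicle replicate 2 (0.102) or high-dose replicate 3 (0.132). In all 3 of 5 subunits were called, where 66.0% of all genes were. RFC3 (0.01 ± 0.14) and RFC5 by 213734_at (-0.01 ± 0.12) did not pass. By 203209_at RFC5 was higher, 10.68, 10.77 and 10.82 against 10.28, 10.26 and 10.41, a change of 0.44 ± 0.10 (adjusted p = 0.00128), and by 203210_s_at it was higher by 0.51 ± 0.17 (adjusted p = 0.0149). On the same arrays the summed proximal tubule markers were at 11.13 to 11.74 against 12.27 to 12.85 with vehicle, the distal nephron markers at 9.88 to 10.10 against 10.12 to 10.88, the leukocyte markers at 5.27 to 6.07 against 4.68 to 4.78, and the ACTB 3′ minus 5′ difference at 1.25 ± 0.30 against 0.86 ± 0.22. Their part in the RFC changes was not tested.

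After low-dose Aa for 48 h RFC3 was higher, at 10.34, 10.33 and 10.57 against 9.66, 9.55 and 9.88, and RFC4 lower, at 11.11, 11.29 and 10.87 against 11.45, 11.37 and 11.49. The change of RFC3 was 0.72 ± 0.14 (adjusted p = 0.00100) and that of RFC4 -0.34 ± 0.13 (adjusted p = 0.0447), 2 of 5 subunits against 37.9% of all genes. Within an array RFC3 minus RFC4 changed by 1.06 (SD 0.34 in treated and 0.12 in vehicle arrays). RFC4's call was lost without vehicle replicate 1, 2 or 3 (adjusted p = 0.0967, 0.0644 and 0.107) or low-dose replicate 1 or 3 (0.0873 and 0.204), and after quantile normalization (0.0685). With all 36 arrays in 1 fit neither was called (adjusted p = 0.0610 for RFC3 and 0.134 for RFC4).

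Set directly against each other, the doses of Aa differed for RFC2 and RFC3 at both hours. RFC2 was higher with the high dose by 0.45 ± 0.10 at 24 h (adjusted p = 0.00492) and by 0.70 ± 0.10 at 48 h (adjusted p = 8.35e-05), and RFC3 was lower, at -0.71 ± 0.14 at 24 h (adjusted p = 0.00149) and -0.71 ± 0.14 at 48 h (adjusted p = 0.000745). RFC1 was also lower with the high dose at 48 h, at -0.52 ± 0.13 (adjusted p = 0.00416). That is 2 of 5 subunits at 24 h, with 27.1% of all genes, and 3 of 5 at 48 h, with 46.5%. By 203209_at RFC5 was also higher with the high dose at 48 h, by 0.39 ± 0.10 (adjusted p = 0.00555). Both RFC3 calls were lost with averaged probe sets (adjusted p = 0.133 at 24 h and 0.0627 at 48 h) and with all 36 arrays in 1 fit (0.0823 and 0.0545), and that of RFC2 at 24 h after shifting to a common median (0.0573).

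The high-dose effect of Aa differed between 48 h and 24 h for RFC3, by 0.61 ± 0.20 (adjusted p = 0.0385), 1 of 5 subunits against 20.7% of all genes. The call was lost in 9 of 12 fits without a single array (adjusted p from 0.0588 to 0.0985), and also without a filter (0.0524), with averaged probe sets (0.350), by 204128_s_at (0.106) and with all 36 arrays in 1 fit (0.328). With the replicate number as a block RFC1 (-0.46, adjusted p = 0.0265) and RFC2 (0.42, adjusted p = 0.00863) were called too, where 4304 of 10972 genes were called. Both also passed without replicate 3 of the 48 h vehicle group (adjusted p = 0.0406 and 0.0479). RFC2 was called as well after quantile normalization (adjusted p = 0.045), a common median (0.0418), no filter (0.0417), the filter at 6 (0.0487) and an intensity trend (0.0442). With averaged probe sets RFC1 (0.03) and RFC2 (0.0243) were called. In a fit over all probe sets, 3451 of 20386 were called. They included RFC1 by 209085_x_at (-0.54, adjusted p = 0.0149), RFC2 by 1053_at (0.45, 0.0441) and RFC5 by 203209_at (0.49, 0.0278). The low-dose effect differed between the hours for 0 of 5 subunits by limma, with 1 at an unadjusted p under 0.05, against 1.64% of all genes called. With the block RFC3 was called (0.61, adjusted p = 0.0103), where 1022 of 10972 genes were called.

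Vehicle cultures of the Aa series at 48 h and 24 h differed in 0 of 5 subunits by limma, with 3 at an unadjusted p under 0.05, where 1.29% of all genes were called. With the replicate number as a block 3 subunits were called: RFC2 at -0.30 (adjusted p = 0.0186), RFC3 at -0.45 (adjusted p = 0.00478) and RFC5, by 213734_at, at 0.45 (adjusted p = 0.0175). The same blocked fit called 1792 of 10972 genes. RFC5 also passed without replicate 3 of the 48 h group (adjusted p = 0.0462).

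Over the 12 groups the order of the means was less sharp than the extremes. For RFC1 all 11 pairs of neighbouring groups in the order overlapped, for RFC3 10, for RFC2 9 and for RFC4 6. RFC5 had 6 overlapping neighbours by 203209_at and 11 by 213734_at. RFC1 had its lowest mean, 9.16 ± 0.26, with high-dose Aa at 48 h. Across the 36 arrays RFC2 followed RFC5 by 203209_at (r = 0.94, and 0.87 and 0.94 within the 18 arrays of Aa and of Ota), whereas r between RFC3 and RFC4 was 0.44, and -0.02 within Aa and 0.25 within Ota. With RFC5 by 203209_at, the other pairs of small subunits lay between these. By 213734_at RFC5 instead had negative r, -0.58 with RFC2, -0.46 with RFC3 and -0.71 with RFC4. For RFC5 by 203209_at r was 0.81 with RFC3 and 0.80 with RFC4, and for RFC2 it was 0.79 with RFC3 and 0.59 with RFC4. In that order r was -0.31, -0.03, -0.51 and -0.16 within Aa, and 0.80, 0.69, 0.88 and 0.41 within Ota. RFC1 by its main probe set followed none of them over the 36 arrays (r of -0.15 with RFC2 and 0.04 with RFC4), and ran opposite to RFC2 within the Aa arrays (-0.64). By 209085_x_at RFC1 had r = -0.53 with RFC4, and 0.57 within Aa and -0.69 within Ota.

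Among 11400 other genes, those most like each subunit over the 36 arrays were picked by Pearson's r; the arrays share 12 groups, so r follows the group means. RFC4 was most like MRPL16 (r = 0.96), BTBD6 (0.95) and FBXO22 (0.95), of which MRPL16, a mitochondrial ribosomal protein gene, was -3.94 from vehicle with high-dose Ota at 24 h and -3.47 at 72 h. RFC3 was most like MRPL14 (0.96), FAS (0.94) and FAM98A (0.94), all low at 24 h (-2.03, -2.78 and -3.40) and above vehicle at 72 h (0.61, 0.15 and 0.12). RFC2 was most like HARS1 (0.95), GLMN (0.94) and SCO1 (0.94), and RFC5 by 203209_at like MAST2, DNAJC9 and MAPKAPK5 (0.97 each). By 213734_at RFC5 was most like ITM2B (0.92), ACADM (0.92) and RDH11 (0.91). For RFC1 the highest values were lower: GARRE1 (0.71), ZNF322 (0.68) and SIAH2 (0.68). Within the 18 Aa arrays several of these values were much lower, 0.11 for BTBD6, 0.28 for MAST2, 0.44 for DNAJC9, 0.48 for MAPKAPK5, 0.50 for FBXO22 and 0.54 for MRPL14, while within the 18 Ota arrays they were 0.96, 0.97, 0.97, 0.96, 0.96 and 0.98.

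The proteins that stand in for RFC1 did not share one pattern with it or with each other. With high-dose Ota at 24 h, 3 of 5 genes of the alternative loaders were lower and 0 higher, where 64.0% of all genes passed: DSCC1 at -1.59 ± 0.20 (adjusted p = 3.85e-06), CHTF8 at -0.82 ± 0.14 and ATAD5 at -0.59 ± 0.18. After quantile normalization 2 genes of the list passed as lower, and after shifting the arrays to a common median 1 did. RAD17 (-0.26 ± 0.28) and CHTF18 (-0.42 ± 0.21) did not pass. At the low dose and 24 h CHTF18 (-1.22 ± 0.21) and CHTF8 (-0.60 ± 0.14) were lower, 2 of 5 with 14.7% of all genes called. At 72 h DSCC1 was higher at both doses, by 1.01 ± 0.20 with the high dose (63.4% of all genes called) and by 1.68 ± 0.20 with the low dose (17.1%), and the other 4 genes did not pass. The DSCC1 vehicle mean was itself lower at 72 h (7.99) than at 24 h (9.89), and both dose means at 72 h (9.00 high and 9.67 low) lay under the latter. After either scaling 3 of 5 were higher with the high dose at 72 h. Here and for the lists below the percentages of all genes are from the values without rescaling. The list counts after rescaling therefore have no matching share of all genes beside them, and nothing is read from them.

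**Figure D4:**
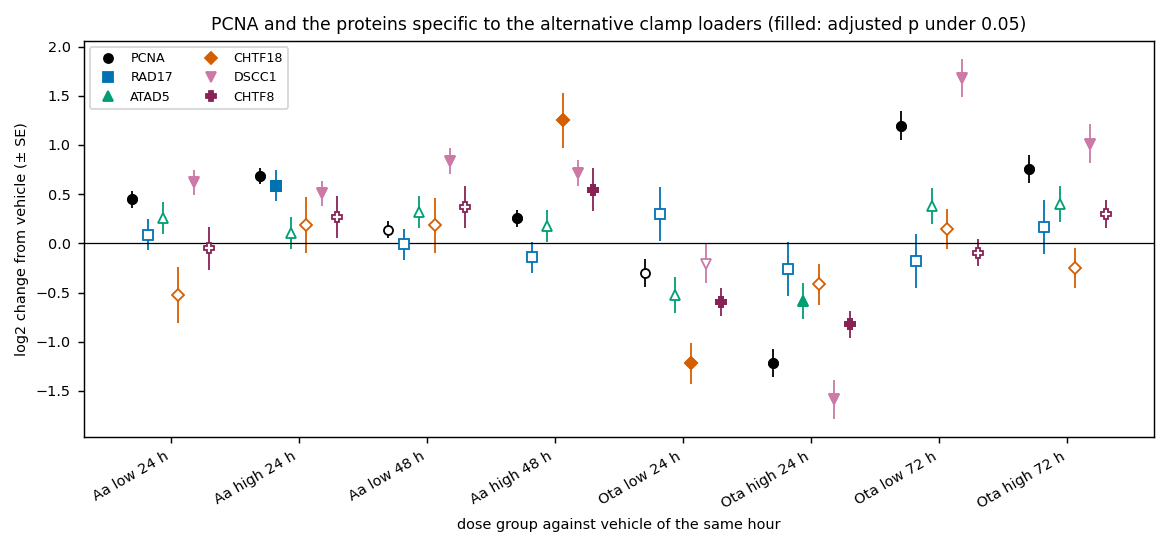
Log2 change from vehicle (y axis, ± SE of the limma fit, 3 arrays a group) of PCNA, RAD17, ATAD5, CHTF18, DSCC1 and CHTF8 by dose group (x axis); filled symbols passed an adjusted p of 0.05. DSCC1 and PCNA lie below 0 with high-dose Ota at 24 h (-1.59 and -1.21) and above 0 at 72 h (1.01 and 0.75).

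With Aa the alternative-loader genes that passed were all higher, 2 of 5 at 24 h and 3 of 5 at 48 h with the high dose, where 51.3% and 66.0% of all genes passed in either direction. They were DSCC1 (0.51 ± 0.13) and RAD17 (0.58 ± 0.16) with the high dose at 24 h, and CHTF18 (1.25 ± 0.28), DSCC1 (0.71 ± 0.13) and CHTF8 (0.55 ± 0.22) with the high dose at 48 h. DSCC1 was also higher with the low dose, by 0.62 ± 0.13 at 24 h (25.1% of all genes called) and 0.84 ± 0.13 at 48 h (37.9%). With the replicate block 3 of 5 genes passed with the low dose at 48 h instead of 1, where 5839 of 10972 genes were called. In the Ota vehicle cultures at 72 h against 24 h 4 of 5 were lower, where 15.8% of all genes were, led by DSCC1 (-1.90 ± 0.20) and CHTF18 (-1.34 ± 0.21), and RAD17 was higher (0.95 ± 0.28).

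PCNA, the clamp that RFC loads, was lower with high-dose Ota at 24 h, at -1.21 ± 0.14 (adjusted p = 2.39e-06), and higher at 72 h by 0.75 ± 0.14 with the high dose (adjusted p = 0.000280) and by 1.20 ± 0.14 with the low dose (adjusted p = 5.61e-05). This is the direction of RFC3 and not of RFC4 at 72 h. The PCNA vehicle mean was itself lower at 72 h (12.29) than at 24 h (13.75). Both dose means of PCNA at 72 h (13.04 high and 13.49 low) lay under the vehicle mean at 24 h. With Aa PCNA was higher at 24 h by 0.68 ± 0.09 (high) and 0.45 ± 0.09 (low) and at 48 h by 0.25 ± 0.09 (high), while RFC3 was lower with the high dose at 24 h. In the list of clamps and checkpoint genes with 8 members tested, 6 were lower and 1 higher with high-dose Ota at 24 h (42.4% and 21.6% of all genes), led by the checkpoint kinase CHEK1 (-4.60 ± 0.26) and the clamp subunits HUS1 (-4.07 ± 0.50) and RAD1 (-2.48 ± 0.16); after quantile normalization 5 were lower and 2 higher. At 72 h 4 were higher and 2 lower with the high dose (26.3% and 37.0% of all genes); HUS1 was still below vehicle (-2.16 ± 0.50) and TOPBP1, an activator of ATR, above it (1.61 ± 0.19).

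Of 17 PCNA partners and lagging-strand genes, 12 were lower and 1 higher with high-dose Ota at 24 h, against 42.4% and 21.6% of all genes, among them MSH6, a mismatch repair protein (-2.72 ± 0.16), and POLE3, a polymerase epsilon subunit (-2.17 ± 0.19). After shifting to a common median 9 were lower and 3 higher. At 72 h 7 were lower and 7 higher (37.0% and 26.3% of all genes), or 4 and 8 after that shift. RNASEH2A, the catalytic subunit of ribonuclease H2, was lower, at -5.42 ± 0.39 (adjusted p = 1.31e-08), and DTL, which directs PCNA-bound proteins to degradation, was higher by 2.58 ± 0.17. Low-dose Ota at 72 h left 10 higher and 1 lower (9.79% and 7.28% of all genes). With high-dose Aa 8 were higher and 1 lower at 24 h (27.4% and 24.0% of all genes), and 11 higher and 1 lower at 48 h (30.9% and 35.1%), led by DNA2 (1.59 ± 0.14) at 24 h and POLE (1.60 ± 0.20) at 48 h. The median change over the 17 genes was -1.25 with high-dose Ota at 24 h and -0.09 at 72 h, beside -0.26 and -0.12 over all genes.

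Of 26 genes of origin licensing and fork assembly, 16 were lower and 1 higher with high-dose Ota at 24 h, against 42.4% and 21.6% of all genes, led by WDHD1 (-3.93 ± 0.19), POLA2 (-3.83 ± 0.39) and TIPIN (-3.46 ± 0.38). The split became 15 and 6 after quantile normalization and 14 and 9 after shifting to a common median. At 72 h with the high dose 12 were higher (26.3% of all genes), led by the replication initiation factor MCM10 (4.03 ± 0.15), and 5 were lower (37.0%), among them PRIM1 (-2.93 ± 0.21) and POLA2 (-2.55 ± 0.39) of the polymerase alpha-primase complex; after shifting to a common median the split was 17 and 4. The low dose at 72 h gave 19 higher and 0 lower, against 9.79% and 7.28% of all genes. In the vehicle cultures of the Ota series 22 of 26 were lower at 72 h than at 24 h and 0 higher, where 15.8% and 14.0% of all genes were, and 15 of 17 PCNA partners and 8 of 9 cell cycle markers were lower too, MKI67 at -2.33 ± 0.21; of the markers 1 was higher after either scaling.

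Of 9 cell cycle markers (cyclins, E2F factors, CDKN1A and proliferation genes) 6 were lower and 1 was higher with high-dose Ota at 24 h (42.4% and 21.6% of all genes), with CCNB1 at -3.64 ± 0.25 and MKI67 at -3.33 ± 0.21. After shifting to a common median 3 were lower and 2 higher. At 72 h 8 were higher and 0 lower with the high dose (26.3% and 37.0% of all genes), among them CCNE2 (2.63 ± 0.21), and 8 higher with the low dose (9.79%). With high-dose Aa 5 were higher and 2 lower at 24 h (27.4% and 24.0% of all genes) and 6 higher and 1 lower at 48 h (30.9% and 35.1%); with low-dose Aa at 48 h 8 were higher and 0 lower (18.8% and 19.1%). CDKN1A, the p21 inhibitor that binds PCNA, was higher with high-dose Aa by 1.57 ± 0.19 at 24 h and 2.02 ± 0.19 at 48 h, and with high-dose Ota by 0.65 ± 0.20 at 24 h and 2.05 ± 0.20 at 72 h.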

How the data were processed

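HK-2 RNA was hybridized to Affymetrix 3′ expression arrays (12 groups, 3 biological replicates each, per the labels). The authors' deposited values are log2 expression values made with GCRMA, per the submitters' processing notes; background correction and normalization thus preceded this work, and the version is not given in the sources used here. Of 54675 probe sets, 41091 have a single gene symbol in the platform annotation, 1801 several and 11721 none; 62 are controls. The arrays, 18 a compound, limit the precision, since no counts underlie the values.

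Per gene the probe set with the highest mean over 36 arrays was used (_x_at sets last). Genes above 4 on at least 3 arrays of a compound were tested with limma 3.58.1 (R 4.3.3), 1 fit per compound over its 18 arrays (12 residual degrees of freedom), Benjamini-Hochberg adjustment over all genes tested (10972 for Aa, 11029 for Ota) and a threshold of 0.05. The p-values measure the spread between these cultures. The RFC genes and the gene lists were chosen with earlier results of these data known. A test of the RFC genes between Ota vehicle cultures was planned, but these arrays are the baseline of the fall that chose the genes. Only the differences are therefore given. The text names the RFC genes and, in lists, PCNA, the alternative loaders and up to 3 called genes of largest change per comparison; POLA2 with high-dose Ota at 72 h and CDKN1A with it at 24 h were added after their values were seen. Lists were fork assembly, PCNA partners, clamps and checkpoint, alternative loaders and cell cycle. Most-alike genes were ranked by r over 36 arrays.

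In the Aa series same-numbered replicates deviated together in 45 of 45 pairs of arrays from 2 groups (r from 0.189 to 0.595), so the numbers pair the samples and blocked values are given where they change a call. In simulated data with known changes among 10972 genes of the Aa high dose comparison at 24 h, limma recovered 71.0% of changes of log2 1 and 93.0% of log2 2. The simulated arrays were unpaired and few genes were changed, whereas 51.3% of all genes were called in the real comparison. The RFC changes with Aa by the main probe sets were below log2 1, so these rates do not give the recovery for them. Alternatives were quantile normalization, shifting arrays to a common median, no filter and a filter at 6, averaging probe sets, the replicate block, all 36 arrays in 1 fit, an intensity trend, other probe sets and leaving out each array.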

Additional observations from a re-analysis of the deposited data

Results flagged for a closer look

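Some effects differed between groups. For RFC3 the high-dose Aa effect at 48 h minus that at 24 h was 0.61 by the interaction test of limma (adjusted p = 0.0385): it was -0.60 at 24 h and 0.01, not called, at 48 h. For RFC1 the same difference was -0.46, every high-dose array lying above the vehicle mean at 24 h and below it at 48 h; limma's test of the difference gave an adjusted p of 0.0859, and 0.0265 with the replicate block.

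The next effects lay on opposite sides of vehicle in different groups. With Ota the differences between hours were not tested, since these groups chose the genes. RFC3 lay below the vehicle mean on every treated array at 24 h and above it on every treated array at 72 h: the later difference minus the earlier was 4.62 with the high dose and 1.85 with the low dose. RFC2 did the same with the low dose (0.89).

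With the low doses at 24 h, RFC3 by its main probe set was below the vehicle mean on every Ota array and above it on every Aa array (Ota minus Aa, -1.09), and so was RFC1 (-0.50). Neither Aa change was called by limma (RFC3 0.11 ± 0.14, adjusted p = 0.636, and RFC1 0.30 ± 0.13, adjusted p = 0.110). By 209085_x_at RFC1 reached 10.13 with low-dose Ota against a vehicle mean of 10.07. By 204128_s_at RFC3 went down to 8.43 with low-dose Aa against a vehicle mean of 8.50. The differences between the compounds were not tested, and their doses are not matched.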

How the results depend on the processing

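Of 924 values of the subunits under other settings in the Aa comparisons and the Ota vehicle comparison, 836 kept their direction or stayed uncalled in both fits (30 of these changed sign), 51 lost the call, 20 gained it and 17 reversed. The Ota vehicle arrays in this tally are the baseline of the fall that chose the genes, so nothing is read from their part. The number of subunits called moved as follows, and with the replicate block more of all genes were called as well. With high-dose Aa at 24 h (1 called) it was 0 with averaged probe sets and 0 with all 36 arrays in 1 fit, and 1 to 2 without single arrays. With low-dose Aa at 24 h (1) it was 0 after quantile normalization, 0 after a common median, 0 with 36 arrays, 2 with the replicate block and 0 to 0 without single arrays. With low-dose Aa at 48 h (2) it was 1 after quantile normalization, 1 after a common median, 1 without a filter, 0 with 36 arrays and 1 to 2 without single arrays. For high against low dose at 24 h (2) it was 1 after a common median, 1 with averaged probe sets and 1 with 36 arrays. For the high-dose effect at 48 h against 24 h (1) it was 2 after quantile normalization, 2 after a common median, 2 with the filter at 6, 2 with averaged probe sets, 3 with the replicate block, 0 with 36 arrays, 2 with an intensity trend, 2 with RFC5 by 203209_at and 0 to 3 without single arrays. For the low-dose effect (0) it was 1 with the replicate block; for the Aa vehicle comparison (0) it was 3 with the replicate block and 0 to 1 without single arrays. High-dose Aa at 48 h (3) ranged from 2 to 3 without single arrays and was 4 with averaged probe sets or RFC5 by 203209_at; high against low dose at 48 h (3) was 2 with 36 arrays and 4 with RFC5 by 203209_at. The Ota vehicle comparison is a description here, so no such counts are given for it. The 36-array fit takes its spread from the Ota arrays too, where the standard error of each subunit was larger (0.16 to 0.38 in the vehicle comparison, against 0.10 to 0.14 in the Aa vehicle comparison); the causes of the other shifts were not tested. The probe sets other than the main ones were tried after seeing the data.

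Reversals came from probe sets that disagree. RFC3 by 231119_at gave 0.89 for high-dose Aa at 24 h, 0.52 and 0.18 for high against low dose at 24 h and 48 h, and -0.38 for the high-dose effect between hours. RFC5 with high-dose Aa at 48 h was 0.31 with averaged probe sets, 0.44 by 203209_at and 0.51 by 203210_s_at. For high against low dose at 48 h RFC5 was 0.24 averaged and 0.39 by 203209_at. For the high-dose effect between hours it was 0.49 by 203209_at, and for the Ota vehicle comparison -0.92 averaged, -1.19 by 203209_at and -1.68 by 203210_s_at. RFC5 thus has no settled direction where its probe sets differ.

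In the Ota series same-numbered replicates correlated above 0.1 in 24 of 45 pairs of arrays (r from -0.0742 to 0.411). Between the low-dose and vehicle arrays at 24 h r was 0.312 to 0.411. The numbers were not taken to pair the Ota samples, but a pairing of some of them is not excluded. Values at or under 4 are near the background of the array and give differences of uncertain size.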
